A study of Mus musculus with 6 samples.

Results

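RefSeq transcript records that collected mainly antisense tags were described in Atxn2 knockout and wild-type mice. A record was a member when its antisense tags, summed over the 6 libraries, numbered at least 100 and at least 2 times its summed sense tags. The rule found 245 of 30433 RefSeq rows, 0.805% of all rows. These rows held 231102 of 363113 antisense tags (63.6%) and 4618 sense tags (0.0339% of the sense tags of all rows). The members were chosen by these summed sense and antisense counts, so the sums are a description and carry no test.

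Ataxin-2, the product of Atxn2, binds RNA and is found with translating ribosomes and with the protein that coats poly(A) tails. The libraries came from cerebellum, hippocampus and liver of C57BL/6 mice, either homozygous Atxn2 knockout or homozygous wild type. All animals were 6 months old by the sample labels, and each of the 6 libraries was made from a pool of 3 animals. MACE, massive analysis of cDNA ends, primes cDNA from the poly(A) tail and sequences a fragment near the 3′ end, so a transcript gives 1 tag whatever its length. A tag is antisense when it matches the strand opposite to a RefSeq record. Counts are given as pairs, the knockout library before the wild-type library of a tissue, in the order cerebellum, hippocampus, liver.

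As background, many mammalian genes lie tail to tail with a neighbour on the other strand, and their 3′ ends can overlap. The 3′ end of each transcript is set by a poly(A) signal, usually AATAAA or its common variant ATTAAA, a short distance upstream of the cleavage site. A tag from the overlap is sense for its own gene and antisense for the neighbour. Independent noncoding antisense transcripts also occur, among them Xist's partner Tsix and the transcripts opposite Cdr1 in brain. Predicted records, built by computation from the genome, are less certain in their strand and extent than curated ones.

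Of the 91 members that could be placed on the GENCODE M21 annotation (mouse build GRCm38), 44 had the annotated 3′ end of an opposite-strand gene inside one of their exons. In 37 of these 44 a poly(A) signal lay close to that end, and the share among other annotated 3′ ends was not taken. In all 37 the reverse complement of the 30-base window lay within the member record. That was nearly given, since the signal was sought in the last 60 bases before an end that lies inside the record. The windows of 8 opposite genes are printed in the sense of that gene, because these pairs carry the tissue comparisons that follow. Capitals mark the poly(A) signal, and the letters were taken from GENCODE M21 transcripts.
Atp1b1, opposite Nme7 (chr1:164437109-164437138, minus strand): acaacggacAATAAAagaatgaacacattc
Rarres2, opposite Lrrc61 (chr6:48569704-48569733, minus strand): tccaggctAATAAAattgctgagtctgttc
Ppp1ca, opposite Rad9 (chr19:4195388-4195417, plus strand): gtctcttgAATAAAggtcaaagctggattc
Hpca, opposite Tmem54 (chr4:129111576-129111605, minus strand): taacttcaaAATAAAgtcttgtttcagtgc
Phyhipl, opposite Fam13c (chr10:70557689-70557718, minus strand): catacatcAATAAAatcaatttggggccac
Rpl32, opposite Cand2 (chr6:115805510-115805539, minus strand): tatgtttaAATAAAatcacaaaacctgccg
Stub1, opposite Jmjd8 (chr17:25830636-25830665, minus strand): actgtcctgtAATAAAgtctgtgagcacta
Surf4, opposite Surf2 (chr2:26920041-26920070, minus strand): aacatcaaAATAAAtaatggcatttgtggt

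Antisense tags numbered 46554 to 67139 per library, 2.23% to 2.87% of the RefSeq tags. The members took 57.2% to 60.2% of them in the 4 brain libraries and 77.8% and 74.2% in knockout and wild-type liver. Tissue markers followed the labels, with marker CPM given as tags per 1e6 RefSeq tags of the library, without TMM scaling. The summed level of 9 cerebellar markers was 12010 and 12803 CPM in cerebellum and at most 734 elsewhere. That of 9 liver markers was 81394 and 82249 in liver. Hippocampal markers summed to 3892 and 3577.5 CPM in hippocampus, 350 and 376 in cerebellum and 39.5 and 36.9 in liver. Of these markers, Cabp7 had no tag in any library. Prox1 had 13 and 16 tags in hippocampus against 8 and 13 in liver, and Nptx1 663 and 675 against 446 and 525 in cerebellum. Liver-marker tags were also present in brain, at 360 and 671 CPM (cerebellum) and 294 and 1570 CPM (hippocampus). Choroid plexus markers summed to 3423 and 4949 CPM (cerebellum), 190 and 501 CPM (hippocampus) and 19755 and 14990 CPM (liver). Most of these tags were of Ttr, at 7929 and 11823, 424 and 1074, and 35975 and 41815. In hippocampus Kl had 26 and 26 tags, Folr1 4 and 4, and Kcnj13 2 and 0. Blood markers summed to 1115 and 873, 266 and 177, and 509 and 296 CPM (liver). Xist tags numbered 0 and 34, 0 and 49, and 0 and 87, and the Y-linked Ddx3y had 81 to 176 tags in every library. Only wild-type libraries thus held Xist tags, and a difference in the sex of the pooled animals cannot be told apart from genotype. Atxn2 sense tags checked the labels: they numbered 0 and 167, 1 and 194, and 2 and 115.

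Antisense tags were very unevenly shared among the members. The median record held 302 antisense tags, the highest 24940, and the leading 15 records held 50.5% of the members' antisense tags. No sense tag at all was found for 85 members, 1 to 10 for 99 and more for the other 61, of which 14 had at least 100. Curated records made up 93 members, of which 77 were coding, and carried 27.1% of the members' antisense tags. Predicted records made up 151 members, 149 of them noncoding, and carried 72.8%, although such records were 8.10% of all rows. Of the members, 124 were joint rows, in which tags matched up to 3 records equally well, and 9 of these joined different gene symbols.

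**Figure D1:**
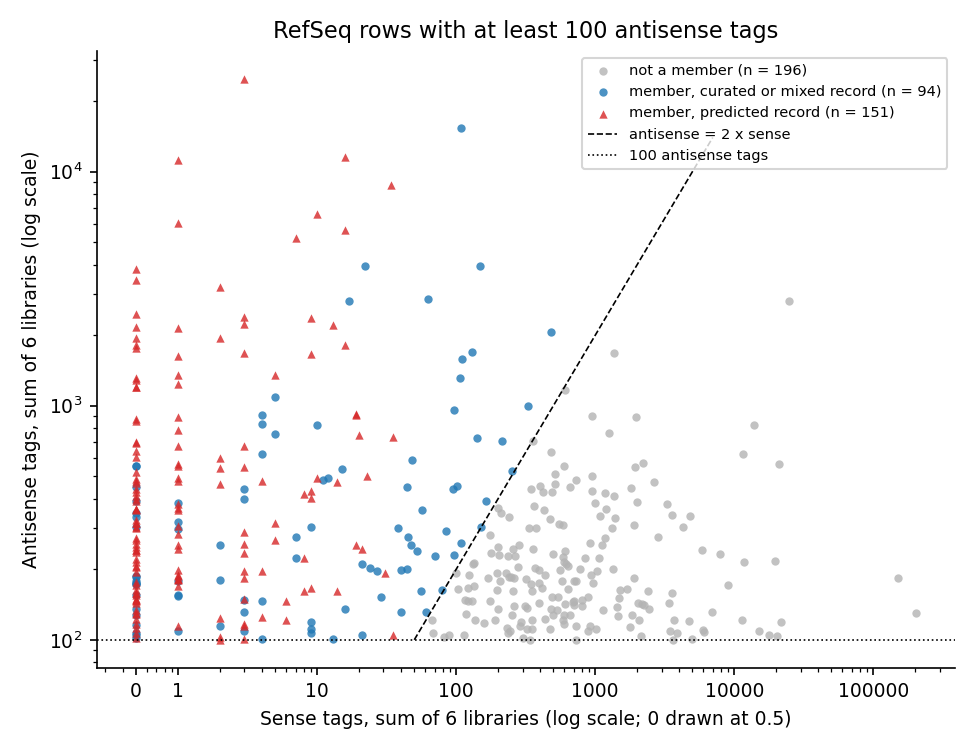
Summed antisense tags (y, log scale) against summed sense tags (x, log scale, 0 drawn at 0.5) of the 441 RefSeq rows with at least 100 antisense tags in the 6 libraries together. The 245 members lie above the dashed line, and the predicted records (red triangles) crowd at 0 to 10 sense tags.

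Just inside the minimum of 100 antisense tags stood LOC100862518 with 100, and D14Abb1e/Gdf3/Ufd1l, Dnaaf1 and Gm9978 with 101 each and Fut8 (row 2 of that symbol) with 102. Just outside it stood Dnd1 and Gm20192 with 99, A130049A11Rik and LOC100862031 row 2 with 98, and the joint row Dhx37/Slc24a6 with 97. At the ratio limit, Gmeb1 had 302 antisense and 150 sense tags, a ratio of 2.01, and Pter had 705 and 355, a ratio of 1.99. The next members inside had ratios of 2.06 (Pdcd4 row 3), 2.08 (Surf2), 2.16 (Ccne2 row 2) and 2.38 (Inpp5e). The next rows outside had 1.92 (Abi3), 1.92 (Narfl), 1.84 (Tubgcp6) and 1.81 (Sdccag8). Members and rows beside them therefore differed little at these limits.

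By the ratio of antisense to sense tags, with sense set to at least 3, the order was led by predicted records. Gm20138 had 24940 antisense and 3 sense tags, LOC100862313 row 2 had 11266 and 1, and Gm19974 had 6050 and 1. LOC100505127 (3829), Gm19876 (3457) and LOC100862144 (2456) had no sense tag. LOC100861805 (3222), LOC100862216 row 2 (2393), LOC100861981 (2242) and LOC100861856 (5198) had 2, 3, 3 and 7. All 10 were predicted records; their genomic place and letters were not analysed here.

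An opposite gene overlapped the span of the placed transcripts, introns included, in 64 of the 91 placed members (70.3%), against 43.4% of the 27433 placed rows. Exons overlapped in 57 (62.6% against 27.9%), and the opposite 3′ end fell inside the record in 44 (48.4% against 11.1%). The 192 placed rows that had at least 100 antisense tags but were not members gave 66.1%, 58.9% and 52.1% for the same measures. The overlap thus went with high antisense counts, and these shares do not set members apart from other such rows. These 57 members had 55 different opposite genes, of which 50 were protein coding, 2 were lincRNAs and 3 were annotated as antisense RNAs.

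For 51 members the opposite gene had sense tags of its own, which allowed the record's antisense count and the neighbour's sense count to be set side by side. No source used here says how a tag matching both records was assigned, so the counts need not come from separate kinds of molecule. In 25 pairs the antisense count was the higher, and the ratio ran from 0.0289 (Fam166a and Tubb4b) over a median of 0.932 to 71.8 (Gm16702 and T2).

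Nme7, a nucleoside diphosphate kinase family member of cilia and centrosomes, had most antisense tags among curated records. Its transcript variant 1 extends 192 bases of exon into Atp1b1, which encodes the β1 subunit of the Na+/K+ pump. Antisense tags of Nme7 numbered 3044 and 3920 (cerebellum), 4259 and 3908 (hippocampus) and 81 and 160 (liver). Atp1b1 sense tags numbered 644 and 543, 1251 and 1022, and 46 and 78 in the same libraries. Both counts were high in the 4 brain libraries and low in liver, without overlap. The antisense difference of liver over brain was -3.72 on the log2 scale (SE 0.268, adjusted p = 1.6e-09, edgeR).

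In these bulk tissues fewer cells of a type and less RNA per cell cannot be told apart. Lrrc61, which encodes a leucine-rich repeat protein, had the opposite order. Its antisense tags numbered 51 and 47 (cerebellum), 35 and 55 (hippocampus) and 1486 and 2264 (liver). Opposite Lrrc61 lies Rarres2, the gene of the adipokine chemerin, with an exonic overlap of 892 bases. Rarres2 sense tags numbered 31 and 32, 19 and 24, and 1105 and 1539. Liver stood above all brain libraries in both, and the antisense log2 difference was 6.60 (SE 0.226, adjusted p = 1.11e-13, edgeR). Without its liver tags Lrrc61 would miss the rule's limit of 2 times the sense tags, so this p-value is read no further.

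Hcn3, a hyperpolarization-activated cation channel gene, had antisense tags almost only in liver: 0 and 1 (cerebellum), 0 and 1 (hippocampus) and 50 and 79 (liver). Pklr, the liver and red-cell pyruvate kinase gene on the other strand, had 0 sense tags in the 4 brain libraries and 89 and 101 in liver. Over the group the antisense ratio of liver to brain was 313-fold, with a 95% counting interval from 84.8 to 2610, since only 2 brain tags stand behind it. Hcn3 sense tags went the other way, at 7 to 12 in brain libraries and 1 and 0 in liver.

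Tmem54, a transmembrane protein gene, followed its neighbour within the brain. Antisense tags of Tmem54 (row 1) numbered 19 and 12 (cerebellum), 348 and 447 (hippocampus) and 1 and 2 (liver). Hpca encodes hippocalcin, a neuronal calcium sensor abundant in hippocampus, and had 259 and 254, 6642 and 5377, and 22 and 33 sense tags. Hippocampus was the highest tissue for both, and the antisense difference of cerebellum over hippocampus was -4.84 on the log2 scale (SE 0.255, adjusted p = 4.54e-10, edgeR). Tmem54 would miss the rule's minimum of antisense tags without its hippocampus tags, so this p-value is read no further.

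Fam13c, opposite the brain gene Phyhipl with 1055 exonic bases in common, had 249 and 234 antisense tags (cerebellum), 239 and 266 (hippocampus) and 1 and 4 (liver). Phyhipl had 285 and 233, 283 and 267, and 3 and 10 sense tags, close to the antisense count in each brain library. Rad9 (Rad9a), a gene of the DNA damage checkpoint, had 560 and 542, 546 and 448, and 242 and 522 antisense tags, the raw counts overlapping between liver and brain. Ppp1ca, the catalytic subunit of protein phosphatase 1 opposite Rad9, had 826 and 744, 753 and 661, and 373 and 651 sense tags.

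Jmjd8 had 528 and 535 antisense tags (cerebellum), 428 and 339 (hippocampus) and 91 and 137 (liver). Stub1, the opposite gene and a ubiquitin ligase that works with chaperones, had 623 and 687, 597 and 354, and 91 and 178 sense tags. Surf2 had 55 and 54, 63 and 59, and 123 and 171 antisense tags, both liver libraries above the brain ones. Surf4, a cargo receptor of the early secretory pathway, had 69 and 67, 59 and 77, and 184 and 270 sense tags, with liver again above brain. Cand2 had 220 and 377 antisense tags in liver, and all 4 brain libraries lay between these. Rpl32, a protein of the large ribosomal subunit, had 946 and 869, 873 and 738, and 666 and 897 sense tags, which also overlapped.

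Over the 51 pairs, liver over brain had the same sign for antisense and neighbour in 42. Both differed by at least 2-fold in the same direction in 23 pairs and in opposite directions in 1. That pair was Pdzd9, with 79 and 90, 126 and 71, and 9 and 17 antisense tags, and Uqcrc2, a subunit of respiratory complex III, with 646 and 683, 691 and 570, and 408 and 982 sense tags. The 2 log2 differences lay within 1 of each other in 35 pairs for liver over brain and in 47 for cerebellum over hippocampus. Described across the 51 pairs, Pearson's r was 0.919 and Spearman's rho 0.815 for liver over brain, and 0.808 and 0.567 for cerebellum over hippocampus. The points share libraries, their scaling and part of their sequence, so no p-value is given. For cerebellum over hippocampus the sign was shared in 37 pairs, and both differed by at least 2-fold in the same direction in 3; 5 members and 5 neighbours differed by that much at all. With library totals in place of TMM the sign was shared in 46 pairs for liver over brain, and both differed by at least 2-fold in the same direction in 33 and in opposite directions in 0.

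**Figure D2:**
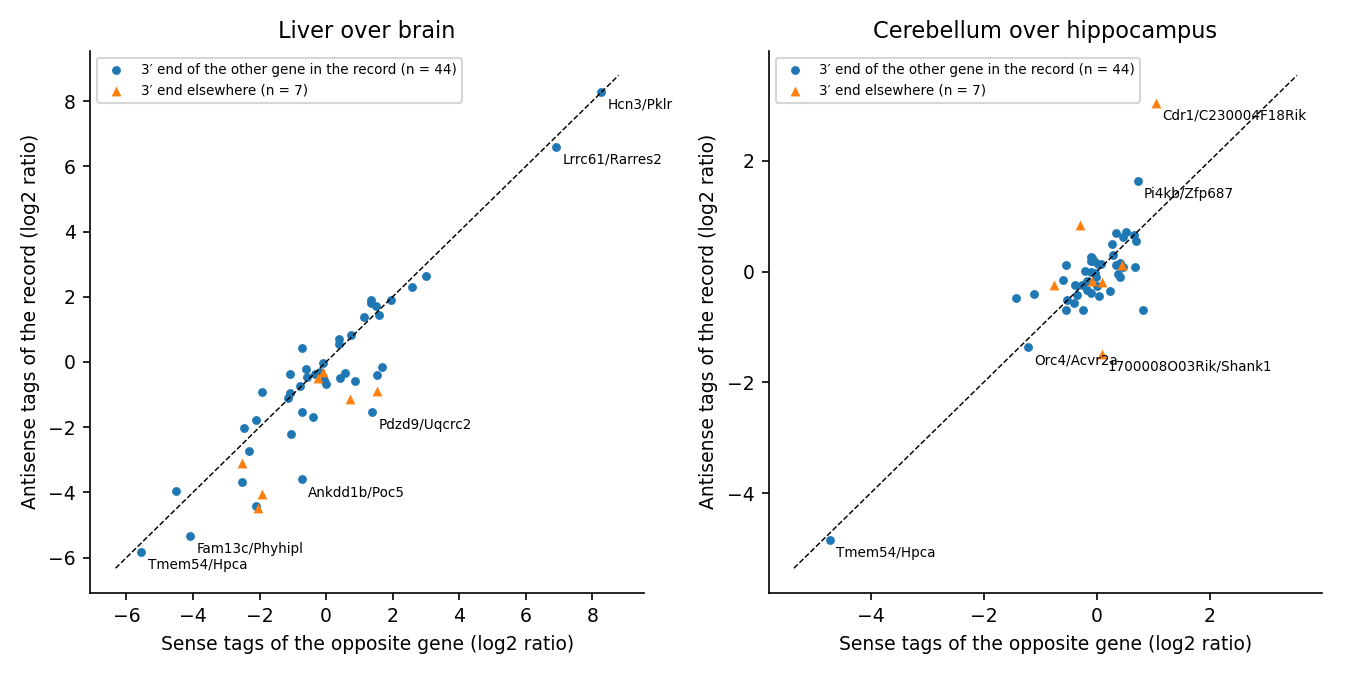
Log2 ratio of antisense tags of 51 members (y) against the log2 ratio of sense tags of the opposite gene (x), for liver over brain (left) and cerebellum over hippocampus (right), from TMM-scaled sums with groups at 0 set to 3 tags. Points near the dashed line of equality include Lrrc61 with Rarres2 and Tmem54 with Hpca, while Pdzd9 with Uqcrc2 lies off it.

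Cdr1, the cerebellar degeneration-related gene on the X chromosome, was the only member from a list of 41 genes known for antisense or overlapping transcripts, of which 35 had a row. Its opposite strand is known for an abundant brain circular RNA; the tags here were not matched to it. Antisense tags of Cdr1 (row 1) numbered 436 and 242 (cerebellum), 23 and 50 (hippocampus) and 1 and 6 (liver), beside 5 sense tags in all. The log2 difference of cerebellum over hippocampus was 3.00 (SE 0.328, adjusted p = 2.32e-06, edgeR). Cdr1 would miss the rule's minimum of antisense tags without its cerebellum tags, so this p-value is read no further. The annotated lincRNA C230004F18Rik, whose exons cover all 1554 bases of Cdr1, had 21 sense tags in all. The log2 difference of Cdr1 was 2.01 without knockout cerebellum, 2.08 without knockout hippocampus, 4.17 without wild-type cerebellum and 4.08 without wild-type hippocampus.

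Of the 34 placed members with no opposite gene over their exons, 21 (61.8%) held a 30-base word whose reverse complement occurs in at least 20 GENCODE genes. The share was 26.1% of the 19769 placed rows without such a gene, 32.9% of the 79 such rows with at least 100 antisense tags that were not members, and 19.3% of the 57 members with an opposite gene. Gpr77 (C5ar2, a complement C5a receptor), Kbtbd10, Dhx37, Nanog, Omd and Jub were among the 21. Of the 7 joint members with several placed genes, 6 shared 30-base words between those genes, and Btbd19/Glt8d1/Gpr77 shared 0 between the genes that were placed. The words of 2 are shown to make the repetition visible. They carry no capitals because every base is shared.
Gpr77/Kbtbd10: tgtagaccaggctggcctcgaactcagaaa
Itsn1/Tnfsf10: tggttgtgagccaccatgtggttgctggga
The word of Gpr77/Kbtbd10 occurred in 433 genes on the sense strand and in 435 on the other, and that of Itsn1/Tnfsf10 in 408 and 414. Among the other sharing rows the most common word occurred in 370 and 339 genes (D14Abb1e/Gdf3/Ufd1l) and in 170 and 119 (Acer1/Jub). It occurred in 28 and 43 for 1810030O07Rik/Hmmr, and in 131 and 0 for D830030K20Rik/Gm10408 row 3. Gpr77 had 808 and 960 antisense tags (cerebellum), 914 and 1075 (hippocampus) and 78 and 136 (liver). Nanog, a pluripotency gene, had 29 and 43, 125 and 106, and 5 and 10, highest in hippocampus, beside 1 sense tag.

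Antisense tags differed widely between tissues. Between liver and brain 77 members were higher in liver and 99 lower (edgeR quasi-likelihood test with TMM scaling, tissue and genotype in the model, Benjamini-Hochberg adjusted p under 0.05 over 14587 features). Among all 912 antisense features tested, 54.3% passed, 21.9% higher and 32.3% lower, and 71.8% of the 245 members passed. The 912 include records with fewer tags than a member can have. Members were chosen by tags summed over tissues, and some reached the limits through the tissue where they were high. Hcn3, LOC100862241 row 4 and LOC100502818 row 1 did so through liver, and LOC100862313 row 2 did so through brain. The members' share of calls is thus partly set by the rule and is read no further. The members' median log2 difference was -0.32, against -0.60 over the antisense features. Each tissue had only a knockout pool and a wild-type pool. A p-value of a tissue difference therefore reads how alike that difference was in the genotypes, while spread among animals was not measured.

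The direction of small differences rested on the scaling. TMM factors were 1.28 to 1.40 in brain and 0.538 and 0.578 in liver, and scaling to library totals moved the members' median of liver over brain by -1.25 and that of cerebellum over hippocampus by 0.12. With library totals 39 members were higher in liver and 173 lower, and 20 of the members called under TMM changed direction. Rad9 was among them, at 0.78 under TMM (SE 0.158, adjusted p = 0.000327, edgeR) and -0.48 with library totals. Pdcd4 row 3 turned from 1.12 to -0.13 and Gpr77/Kbtbd10 from 1.09 to -0.15.

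Predicted records led in liver. Gm20138 had 34 and 125 antisense tags (cerebellum), 32 and 171 (hippocampus) and 11783 and 12795 (liver), which is 8.86 on the log2 scale (SE 0.516, adjusted p = 9.54e-11, edgeR). LOC100862155 had 16 and 31, 12 and 68, and 3842 and 4801, and LOC100862241 row 2 had 17 and 40, 13 and 66, and 5383 and 6068. Each liver library stood far above each brain library in these records. Other rows of LOC100862241 gave 9.07 (row 1) and 8.06 (row 3), and row 4 had 111 liver tags against 1 in brain, a ratio of 538 (95% counting interval 94.6 to 21450). LOC100502818 row 1 (8.59), Gm19288 (7.03) and LOC100861902 row 2 (6.89) completed the highest 10 together with Hcn3. LOC100505127, at 46 and 61, 60 and 63, and 1538 and 2061, gave 6.28.

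Other records had tags mainly in brain. LOC100862313 row 2 had 4329 and 4274 antisense tags (cerebellum), 1473 and 1152 (hippocampus) and 9 and 29 (liver), or -5.71 on the log2 scale (SE 0.324, adjusted p = 6.57e-11, edgeR). It would miss the rule's minimum of antisense tags without its brain tags, so this p-value is read no further. LOC100862073 had 1795 and 1959, 1431 and 1363, and 11 and 18. Both had their lowest brain library far above the liver libraries. 1700008O03Rik, opposite the postsynaptic scaffold gene Shank1, had no liver tag against 240 in brain, at least 16.5-fold lower with liver set to 3 tags. Gm20381 had none against 301, at least 20.7-fold lower. LOC100861830 had 2 liver tags against 491, which is 50.6-fold lower (95% counting interval 13.9 to 419). LOC100862137 had 2 against 312, 32.2-fold lower (8.83 to 267), and LOC100862254 had 1 against 237, 48.9-fold lower (8.69 to 1939). Fam13c (-5.33), LOC100861833 (-5.09) and LOC100861893 (-4.49) were the others among the lowest 10.

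A few abundant records were present in all tissues. Gm19974 had 910 and 848 antisense tags (cerebellum), 1096 and 1164 (hippocampus) and 859 and 1173 (liver). Gm19876 had 514 and 488, 527 and 436, and 746 and 746. LOC100861805 had 598 and 509, 533 and 450, and 468 and 664. Both liver libraries lay above each brain library for Gm19876, and liver and brain overlapped in the other 2. The liver-over-brain differences of 1.33, 1.93 and 1.42 under TMM were 0.06, 0.67 and 0.16 with library totals. LOC100861856 (184 and 248 in liver, 1137 to 1240 in brain) and LOC100861669 (28 and 52 in liver, 822 to 2023 in brain) were lower in liver.

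**Figure D3:**
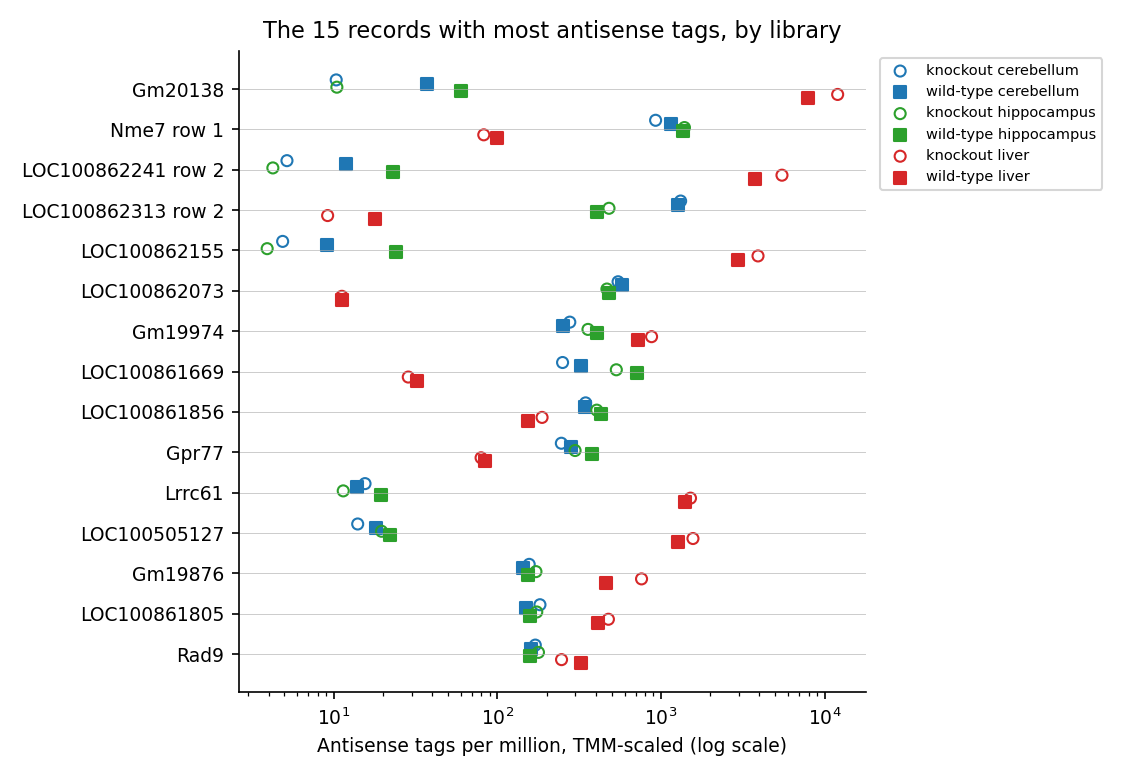
Antisense CPM after TMM scaling (x, log scale) of the 15 members with most antisense tags, 1 point per library; circles are knockout and squares wild type. Gm20138, LOC100862241 row 2, LOC100862155, Lrrc61 and LOC100505127 lie far higher in liver (red), and LOC100862313 row 2, LOC100862073 and Nme7 row 1 far higher in brain.

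Between the brain regions fewer members differed: 18 were higher in cerebellum and 32 in hippocampus, against 9.87% and 10.3% of the 912 antisense features (20.2% in all, edgeR as above). Here too some members reached the limits of the rule through the region where they were high. Without the knockout or the wild-type cerebellum library the total of 50 fell to 27, and DESeq2 called 29. Frmpd3, a FERM and PDZ domain gene, had 44 and 72 antisense tags (cerebellum), 1 and 1 (hippocampus) and 0 and 1 (liver). Its group ratio was 51.4-fold, with a 95% counting interval from 13.9 to 429. Gm20381 had 128 and 133 in cerebellum against 21 and 19 in hippocampus (2.52, SE 0.265, adjusted p = 2.32e-06, edgeR). This record would miss the rule's minimum of antisense tags without its cerebellum tags, so its p-value is read no further. LOC100862129 row 2 (1.78), Pi4kb (1.62), LOC100862313 row 2 (1.54), LOC100862216 row 2 (1.47), Gm19712 (1.43), LOC100861955 row 2 (1.36) and Smtnl2 (1.33) followed Cdr1 in this order.

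Hippocampus led for LOC100862086, with 1089 and 1041 antisense tags in knockout and wild-type hippocampus, 27 and 29 in cerebellum and 6 and 14 in liver. This was -5.42 on the log2 scale (SE 0.212, adjusted p = 2.37e-11, edgeR), the groups lying far apart. LOC100862086 would miss the rule's minimum of antisense tags without its hippocampus tags, so this p-value is read no further. LOC100862121 had 696 and 782 in hippocampus against 56 and 83 in cerebellum. After Tmem54 came LOC100862254 (-3.32), LOC100861633 (-3.26), LOC100861893 (-3.13), Nanog (-1.86), Gm19528 row 2 (-1.78), Gm19595 row 1 (-1.78) and Gm19595 row 2 (-1.61).

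By mean level under TMM, 97 members were highest in liver, 83 in hippocampus and 65 in cerebellum; with library totals, an alternative chosen after seeing the data, these were 50, 97 and 98. Under TMM more than 90% of the summed tissue means lay in liver for 17 members, in hippocampus for 4 and in cerebellum for 1, and with library totals for 13, 3 and 1. Members with an opposite gene over their exons numbered 14 higher and 24 lower in liver, placed members without one 6 and 20, and members not placed 57 and 55; the difference between these groups was not tested.

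**Figure D4:**
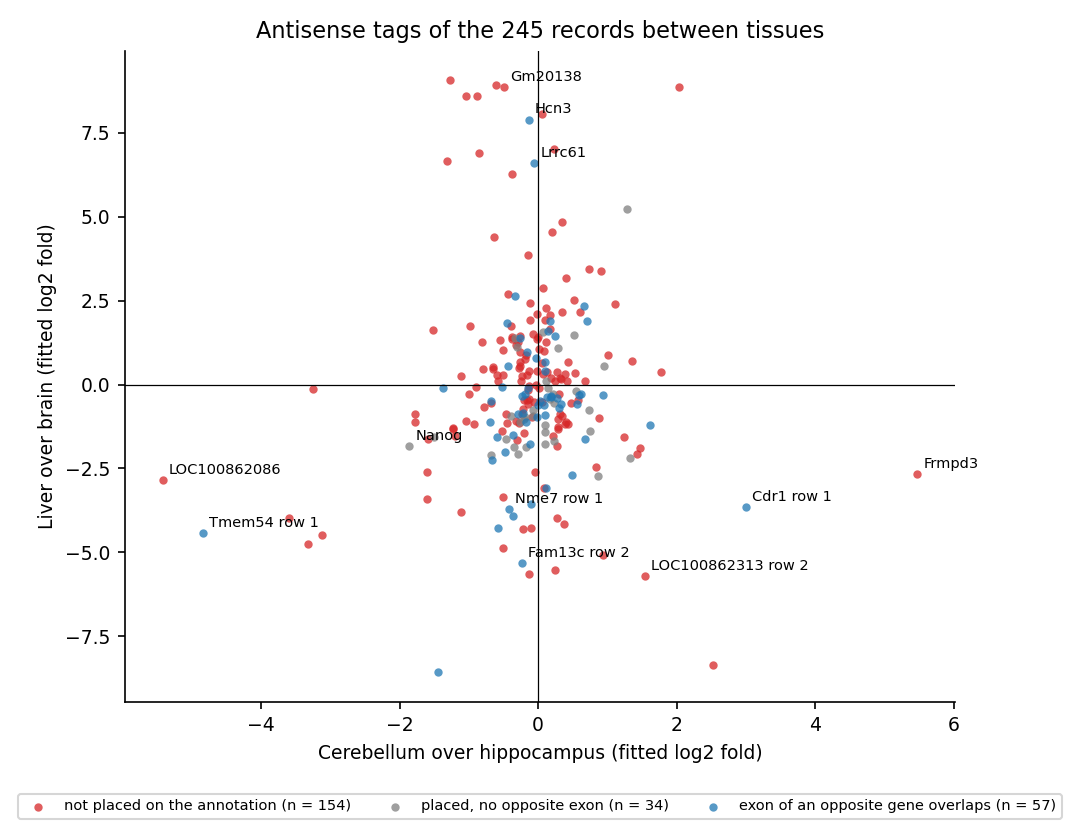
Fitted log2 fold of antisense tags of liver over brain (y) against cerebellum over hippocampus (x) for the 245 members, coloured by whether the record was placed on the annotation and had an opposite exon. The spread along y, from -8.57 to 9.07, is wider than along x, from -5.42 to 5.47, and values of records at 0 in a tissue depend on the fit.

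Genotype was compared next, across tissues and within each. Across tissues, Gm19731 row 1 was higher and Slc35d1 lower in knockout, 2 of 245 members, against 0.439% of the 912 antisense features (0.110% higher, 0.329% lower; edgeR as above). Both reached the minimum of 100 antisense tags through the 1 library where they were high, so the rule used this difference and the count is read no further. An unadjusted p under 0.05 was reached by 22 members. The median log2 genotype difference of the members was -0.035 and that of the antisense features -0.040. The labels name animals 1, 2 and 3 of a genotype in each tissue, so a genotype's 3 libraries may share 1 pool of animals. A p-value here reads how alike the tissues were, while spread among animals was not measured. Because Xist tags were in wild-type libraries only, a difference in the animals' sex cannot be told apart from genotype in these comparisons.

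Gm19731 is a predicted gene that had antisense tags in every library and no sense tag. They numbered 21 and 1 (cerebellum), 15 and 1 (hippocampus) and 176 and 2 (liver). Each knockout library lay above each wild-type library, most of all in liver. The fitted difference was 6.15 on the log2 scale (SE 0.457, adjusted p = 2.23e-06, edgeR). Without both liver libraries it was 3.99 (adjusted p = 0.0023, edgeR). In liver alone, from 1 library per genotype, the log2 ratio was 7.18 (95% counting interval 5.30 to 10.2). A second row of the symbol held 1 tag.

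Slc35d1 encodes a nucleotide sugar transporter of the endoplasmic reticulum and lies on chromosome 4 (103170649 to 103215164, minus strand, GRCm38). Its antisense tags numbered 3 and 12 (cerebellum), 3 and 2 (hippocampus) and 8 and 173 (liver). The wild-type liver library alone stood apart, and the other 5 overlapped between genotypes. Its sense tags numbered 5 and 0, 1 and 2, and 12 and 24. The fitted difference was -2.95 (SE 0.456, adjusted p = 0.00817, edgeR) and lost its call without knockout liver (-1.17, adjusted p = 0.718) or wild-type liver (-1.15, adjusted p = 0.797) and in DESeq2.

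Gm15645, a transcribed pseudogene, had 177 and 113 antisense tags (cerebellum), 206 and 94 (hippocampus) and 17 and 14 (liver), with the knockout library higher in each tissue. The difference of 0.87 missed the threshold (SE 0.174, adjusted p = 0.0584, edgeR). Without the liver libraries it passed (0.85, adjusted p = 0.0097, edgeR). Others at the ends of the order that did not pass were LOC100862241 row 4 (0.98), Itsn1/Tnfsf10 (0.87) and LOC100502818 row 1 (0.75). At the low end stood Gm20138 (-1.09), 1700008O03Rik (-0.98), Gm19918 row 2 (-0.92) and Il2ra (-0.85).

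Without knockout liver 10 members passed, against 1.31% of the 1144 antisense features tested in that fit. Without wild-type liver 10 passed as well, against 1.25% of 1116, and without both 5 passed, against 0.957% of 836. The members that were lower in knockout in the last fit, Gm20138 (-2.19), LOC100862155 (-1.82) and LOC100862241 row 2 (-1.84), are the records with most liver tags, counted here at their low level in brain. Their brain tags were fewer in knockout libraries, as were the liver-marker tags given above (360 against 671 and 294 against 1570 CPM). The part of these in the result was not tested. In liver itself Gm20138 had 11783 tags in knockout and 12795 in wild type.

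Single tissues have 1 library of each genotype, so their ratios carry counting error only and no test. In cerebellum 6 of 235 members with at least 20 tags differed by at least 2-fold with an interval that excluded equality (2.55%), against 3.65% of all antisense features with as many tags; 4 were higher (1.70% against 1.09%) and 2 lower (0.851% against 2.55%). In hippocampus 15 of 231 did (6.49% against 8.64%), 3 higher (1.30% against 1.95%) and 12 lower (5.19% against 6.69%) in knockout. In liver 11 of 183 did (6.01% against 10.1%), 5 higher (2.73% against 6.48%) and 6 lower (3.28% against 3.63%). These shares lay near or under the background in each tissue.

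In hippocampus Sgol2 row 2, a shugoshin gene opposite Kctd18, had 43 antisense tags in knockout and 7 in wild type, a log2 ratio of 2.51 (95% counting interval 1.35 to 3.91). In cerebellum it was not among the 6. 1700008O03Rik had 51 against 120 and Cdr1 23 against 50 in hippocampus, both lower in knockout, while Cdr1 had 436 against 242 in cerebellum. In liver LOC100861940 had 2 against 28 (-3.09, -6.20 to -1.10) and LOC100862286 5 against 43 (-2.39, -4.08 to -1.05). These records were chosen for their place among the largest ratios after the values were seen.

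**Figure D5:**
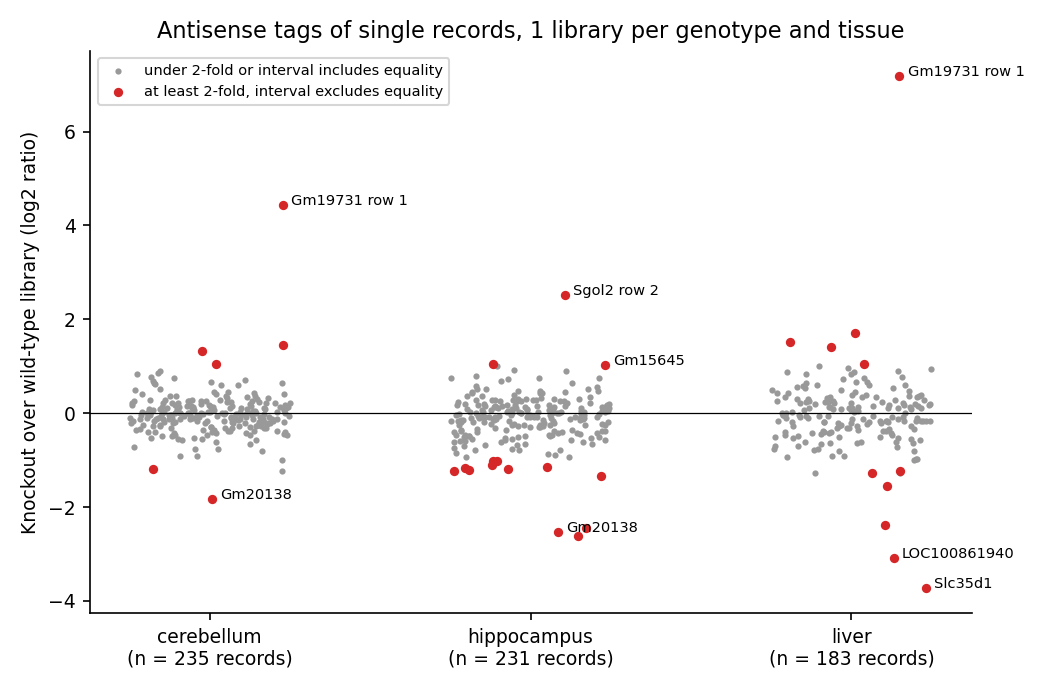
Log2 ratio of antisense tags in the knockout over the wild-type library (y) in each tissue, TMM-scaled, for members with at least 20 tags over the pair; horizontal scatter carries no meaning. Most of the 235, 231 and 183 points lie within 1 of 0, and the red points, at least 2-fold with a counting interval that excludes equality, include Gm19731 row 1 in cerebellum and liver and Slc35d1 in liver.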

How the data were processed

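The authors deposited counts of MACE tags per RefSeq record, sense and antisense, not normalized, per the file headers. Bases were called with CASAVA 1.8.2 and the build was mm9, per the submitters' processing notes, yet the tables name a GRCm38 set; no source used here names the aligner. The labels' protocol names midbrain and ages in weeks; the sample labels were followed. RefSeq tags numbered 1821077 to 2789675 per library, which limits the precision of each count. Each row and orientation was 1 feature. Features kept by filterByExpr (14587, all 245 members among them) were fitted with edgeR 4.0.16 in R 4.3.3 (quasi-likelihood, TMM, genotype and tissue), with Benjamini-Hochberg adjustment. CPM (tags per 1e6) uses TMM-scaled RefSeq totals, except for the marker sums, which use unscaled RefSeq totals. Clopper-Pearson intervals (95%) cover counting error only, since reads lack a molecule count here; a count of 0 was set to 3 per library, or per group for group ratios. Rows of genomic contigs, mitochondrial records and unmatched tags stayed out of totals and tests. On simulated counts for the genotype comparison over 14587 features, the fit recovered 26% of 50 features changed 1.5-fold, 56% changed 2-fold, 94% changed 4-fold and 98% changed 8-fold, and called 5 unchanged ones.

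Members were placed through GENCODE M21's RefSeq table, and an opposite gene was counted where 1 of its transcripts overlapped the span of the member's matched transcripts by at least 2 bases; the wider gene span was not used. Further definitions, exon overlap and the 3′ end inside the record, were chosen after seeing the data. Named members were the 15 with most antisense tags, the 10 highest ratios, every genotype call with the 5 highest and 5 lowest, the 10 highest and lowest per tissue contrast and the 5 beside each limit; pairs and repeat-bearing records were chosen after their values were seen. Members and lists were chosen with earlier results of these data known. Alternatives were other scalings, no filter, DESeq2 1.42.0, rows of 1 record, other limits and each library or tissue left out.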

Additional observations from a re-analysis of the deposited data

Results flagged for a closer look

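Antisense tags also fell on 10601 genomic contig rows that no comparison used. They numbered 1666488 over the 6 libraries, from 154666 to 330728 per library, above the 3 tags that a count of 0 allows. A contig row names no gene, and these tags were not analysed further here.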

How the results depend on the processing

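The genotype comparison called 2 members; it called 4 without a filter on low counts, 1 in DESeq2, 0 without the tissue block (edgeR, 1 at an unadjusted p under 0.05; DESeq2 was not run without the block) and 2 to 10 with a library or tissue left out. Liver against brain called 176 members, 81 of the 121 rows of 1 record and 153 to 171 with a library or tissue left out. Cerebellum against hippocampus called 50, with 29 in DESeq2, 27 in rows of 1 record and 27 to 70 with a library or liver left out. The other scalings gave 157 to 212 for liver against brain and 37 to 51 for the brain regions. The rule gave 162 members with at least 200 antisense tags and 121 with rows of 1 record. Within tissues, limits of 1.5-fold and 4-fold gave 19 and 1 members (cerebellum), 31 and 4 (hippocampus) and 26 and 4 (liver). In liver against brain with library totals, Rad9 turned to -0.48, Pdcd4 row 3 to -0.13 and Gpr77/Kbtbd10 to -0.15. The cause was not tested, except that rows of 1 record hold fewer members. Of the other values of named members under an alternative, 862 kept direction and call and 42 lost the call. For cerebellum against hippocampus Gmeb1 lost its call in 8 of them, Smtnl2 in 5 and Gm19595 row 2 in 4.

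No paired analysis by replicate was possible because each group is 1 pooled library. The tissue term of the fit sets knockout against wild type within tissues. Depth limits the records with few tags: the wild-type values of Gm19731 row 1 rest on 1, 1 and 2 tags.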

Other observations

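Antisense tags of 2 rows outside the 245 members passed the genotype test across tissues (edgeR, chosen after their values were seen). Snhg11 row 1, a small nucleolar RNA host gene expressed in neurons, had 45 and 141 antisense tags (cerebellum), 15 and 31 (hippocampus) and 3 and 7 (liver). Its log2 difference was -1.40 (SE 0.267, adjusted p = 0.0405, edgeR), lower in knockout in 3 of 3 tissues. Its sense tags numbered 1652 and 1578, 1503 and 1111, and 20 and 39, so sense and antisense tags differed in direction in both brain regions. Tmem181c-ps, a pseudogene, had 33 and 105, 11 and 30, and 2 and 8 antisense tags, a log2 difference of -1.57 (SE 0.278, adjusted p = 0.0238, edgeR). Its sense tags, 103 and 191, 51 and 85, and 1 and 2, were lower in knockout too.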
